A study of Rattus norvegicus with 6 samples.

Results

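Cytosolic ribosomal protein genes encode the proteins of the 60S and 40S subunits, which joined on an mRNA form the ribosome of the cytoplasm. Genes were taken by name, as Rpl (large subunit) or Rps (small subunit) followed by digits and optionally the letter a, x or y, with a summed count of at least 60 over the 6 libraries. This rule gave 69 genes of 24988 in the table, 42 of the large and 27 of the small subunit. No gene of such a name fell below the summed count, and the lowest, Rpl38, had 337 counts in all. All 69 passed the filter on low counts. Other proteins of the same ribosome whose names do not follow that pattern were described as related genes.

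The libraries were made from total RNA of abdominal aortas of Sprague-Dawley rats. There were 3 libraries from aneurysms treated with NP, the nanotherapy of the series title, and 3 from aneurysms without treatment, so that every rat described here carried an aneurysm and no healthy aorta was analysed. The composition and dose of NP, the way the aneurysm was induced, and the age and sex of the rats are not stated in the labels. Nor do the labels tie the libraries to separate animals, and a p-value here speaks only for the spread among these 6 samples, part of which may be technical. In whole tissue, fewer cells of a type and less RNA per cell cannot be told apart.

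Each ribosome holds a single copy of nearly every ribosomal protein, and the proteins are made in matched amounts although their genes lie scattered over the genome. Their mRNAs are abundant, short and long-lived, and in mammals most begin with a run of pyrimidines, the 5′ terminal oligopyrimidine (TOP) tract, through which the growth-sensing kinase complex mTORC1 controls their translation. Proliferating and secretory cells, among them activated lymphocytes and macrophages, hold much of this mRNA. The genes have given rise to many processed pseudogenes, and the RefSeq table of the GRCr8 rat assembly names 818 pseudogenes after the 69 genes, from 1 for Rpl41 to 36 for Rps2. Reads of a gene and of its copies can be confused by an aligner, so every level given here is uncertain to that extent.

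The starts of these genes are shown because most mRNAs of the family begin with the pyrimidine tract, a feature that the choice of genes did not use. RefSeq promoters of GRCr8 matched 54 of the genes by symbol, 53 of them with a single entry. In the stretch from 40 bases before to 20 bases after the annotated start, CTTTC on the strand of the gene was found in 25 of 53 (47.2%), against 7.80% of all 33469 RefSeq promoters. On the opposite strand it was found in 1 of 53 (1.89%), against 7.41% of all. The related CTTCC was found on the strand of the gene in 24 (45.3%), against 12.5% of all, and on the opposite strand in 12 (22.6%), against 12.9%. At least 1 of these motifs, which can overlap in CTTCCTTTC, stood on the strand of the gene in 37 of 53 (69.8%), against 19.1%. Letters of other promoter elements were rarer. TATAAA was found on the strand of the gene in 2 (3.77%), against 2.06% of all. CCGGAAG was found in 3 (5.66%), against 1.86%, and on the opposite strand, where it reads CTTCCGG and overlaps CTTCC, in 4 (7.55%), against 1.71%. The letters CTTTC and CTTCC were chosen after the windows had been seen, and a match is a description of the sequence only. They were counted anywhere in the window, so a match that ends before the annotated start lies outside the annotated mRNA. Below, capitals mark CTTTC and CTTCC, and the annotated start is base 41 of each line.
Rps23: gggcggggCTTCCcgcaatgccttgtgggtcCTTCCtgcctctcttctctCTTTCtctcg
Rpl35: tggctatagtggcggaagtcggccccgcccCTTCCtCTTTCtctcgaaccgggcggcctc
Rpl37: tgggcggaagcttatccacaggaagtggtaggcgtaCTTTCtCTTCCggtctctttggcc
Rpl39: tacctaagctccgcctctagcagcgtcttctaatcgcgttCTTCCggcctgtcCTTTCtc
Rpl28: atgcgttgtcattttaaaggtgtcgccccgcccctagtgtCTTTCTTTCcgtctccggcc
Rpl21: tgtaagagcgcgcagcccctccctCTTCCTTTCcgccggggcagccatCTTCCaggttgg
Rpl41: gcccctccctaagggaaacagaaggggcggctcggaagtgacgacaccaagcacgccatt
Rps4x: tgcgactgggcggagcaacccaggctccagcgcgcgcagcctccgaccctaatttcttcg
The windows lie at chr2:23814477-23814536 (+ strand) for Rps23, chr3:43165902-43165961 (- strand) for Rpl35, chr2:55942905-55942964 (+ strand) for Rpl37, chrX:121195877-121195936 (- strand) for Rpl39, chr1:78083513-78083572 (- strand) for Rpl28, chr12:13386134-13386193 (- strand) for Rpl21, chr7:1563478-1563537 (- strand) for Rpl41 and chrX:71342902-71342961 (- strand) for Rps4x of GRCr8. The first 6 lines hold a pyrimidine run, and the last 2 are shown as members without either motif. Rps23, a protein of the decoding centre of the small subunit, and Rpl35, near the exit tunnel of the large subunit, had folds above 1 in the comparison of treatment, and Rpl28 and Rpl21 were among the 3 genes with a fold below 1.

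Levels between genes are compared in FPKM, which divides the count by gene length and library size. Although the proteins are needed in equal number, the mean FPKM over the 6 libraries differed widely between the genes. The median gene stood at 562 FPKM, with quartiles of 364 and 853 FPKM. In all, 10 genes averaged over 1000 FPKM and 7 under 100 FPKM. These 7 include Rpl7, which is low through the length given to it, as described below. Whether reads lost to copies lowered the others was not tested.

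Among the highest was Rps15, a protein of the head of the small subunit, at 2077, 1519.6 and 1563 FPKM in NP-treated replicates 1, 2 and 3, against 1535, 1901 and 1469.9 FPKM in untreated replicates 1, 2 and 3. Its groups overlapped. Rpl41, a very short basic peptide, averaged 1626 ± 577 FPKM in NP-treated and 1284 ± 98.4 FPKM in untreated libraries (SD, n = 3 each). Rpl35 averaged 1531 ± 228 FPKM in NP-treated and 1220.0 ± 118 FPKM in untreated libraries, and Rpl23a, which docks the signal recognition particle at the exit tunnel, 1454 ± 449 FPKM in NP-treated and 1125 ± 106 FPKM in untreated libraries. NP-treated replicate 1 held the highest value in all 4 of these genes, and in Rps15 untreated replicate 2 came next.

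At the bottom stood Rpl38, a large-subunit protein that in the mouse affects the translation of Hox mRNAs, at 11.0, 7.17 and 6.80 FPKM in NP-treated replicates 1, 2 and 3, against 6.12, 4.75 and 7.77 FPKM in untreated replicates 1, 2 and 3. Its counts were only 92, 50 and 50 in NP-treated replicates 1, 2 and 3 and 46, 36 and 63 in untreated replicates 1, 2 and 3, so its relative counting error is the largest of the family. Rps29, a zinc-binding protein of the small subunit, followed at 32.3, 14.4 and 23.5 FPKM in the NP-treated libraries and 19.5, 11.2 and 25.4 FPKM in the untreated libraries. Rpl9 averaged 56.7 ± 18.5 FPKM in NP-treated and 46.2 ± 8.68 FPKM in untreated libraries. Rpl39, which lines the exit tunnel, averaged 56.3 ± 25.9 FPKM in NP-treated and 51.1 ± 2.24 FPKM in untreated libraries, and Rpl37, a zinc-binding protein of the large subunit, 97.1 ± 53.7 FPKM in NP-treated and 83.2 ± 10.3 FPKM in untreated libraries. Among NP-treated libraries the ranges of Rpl9, Rpl39 and Rpl37 overlapped, and among untreated libraries Rpl37 lay above the other 2. Rps29 lay below them in every library and Rpl38 below Rps29.

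FPKM depends on the length given to each gene. The length that count and FPKM imply together had a median of 759 bases over the genes, with a range from 265 bases for Rpl38 to 6377 bases for Rpl7. The next longest was Rpl15 at 2309 bases. Rpl7 was therefore at a mean of 92.1 FPKM, among the lowest, with a mean count of 16962, while Rpl17 with a mean count of 17626 was at 866 FPKM.

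**Figure D1:**
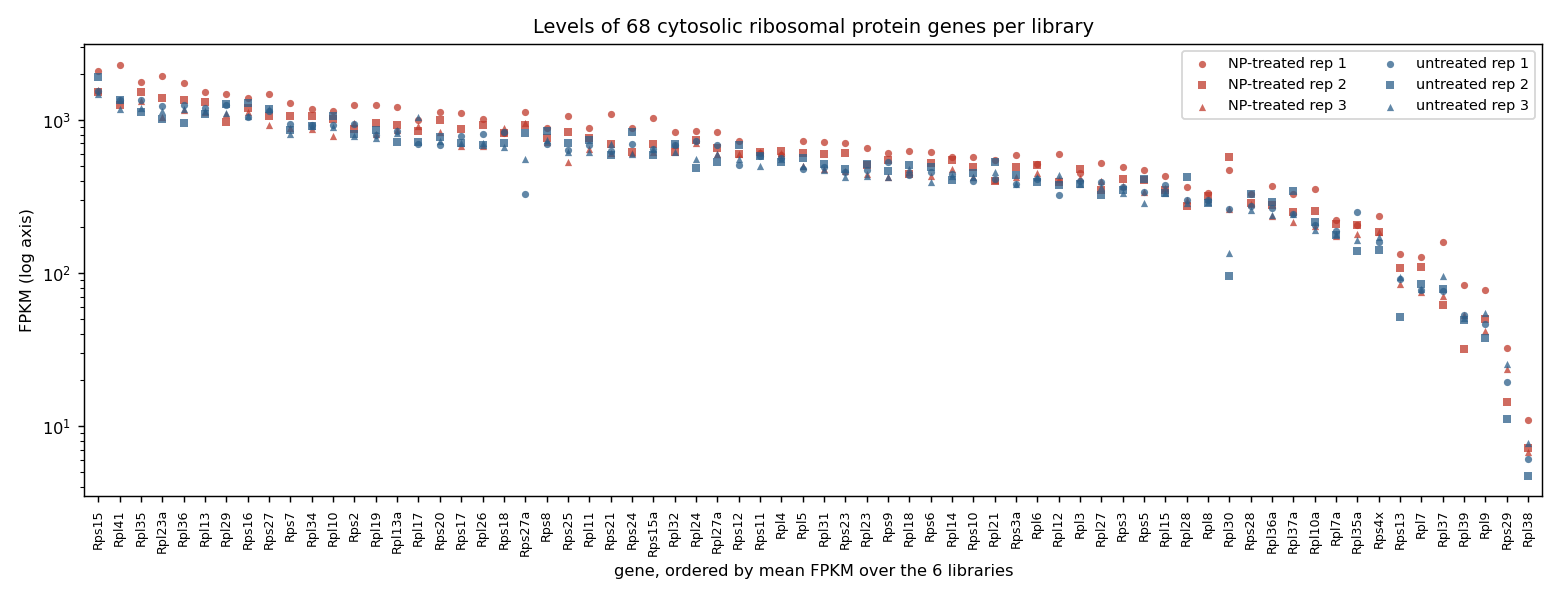
FPKM (log axis) of 68 of the 69 genes in the 3 NP-treated (red) and 3 untreated (blue) libraries, ordered by the mean over all 6. Levels decline slowly over most of the genes and steeply over the last genes to 7.27 FPKM for Rpl38, and Rpl30 and Rps27a have widely spread points.

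The genes as a whole took 4.53, 3.57 and 3.20% of the counts in NP-treated replicates 1, 2 and 3, against 3.22, 3.35 and 3.12% in untreated replicates 1, 2 and 3. The share averaged 3.77 ± 0.688% in NP-treated and 3.23 ± 0.117% in untreated libraries (SD, n = 3 each). In this share NP-treated replicate 1 stood apart, NP-treated replicate 2 lay above the untreated range, and NP-treated replicate 3 lay within it. Without NP-treated replicate 1 the difference between the group means was 0.150 percentage points, against 0.533 with it. Total counts per library were 26100468 to 30939002, and mitochondrially encoded genes took 8.54% to 13.9% of them.

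NP-treated replicate 1 also stood apart gene by gene after scaling. CPM below are counts scaled to library size with edgeR's TMM factors, which were 0.891 for NP-treated replicate 1 and 0.984 to 1.09 for the other libraries. Summed over the genes, NP-treated replicate 2 was at 32662 CPM, now inside the untreated range of 31182 to 33677 CPM. Of the 69 genes, 67 had their highest CPM in NP-treated replicate 1, where 27.3% of all 16522 tested genes had theirs. The exceptions were Rpl28, highest in untreated replicate 2, and Rpl35a, highest in untreated replicate 1. After each gene's own mean log2 CPM had been subtracted, the median over the genes was 0.57 in NP-treated replicate 1, -0.06 in replicate 2 and -0.14 in replicate 3. In untreated replicates 1, 2 and 3 it was -0.14, -0.09 and -0.13. The medians of NP-treated replicates 2 and 3 thus lay close to the untreated values.

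**Figure D2:**
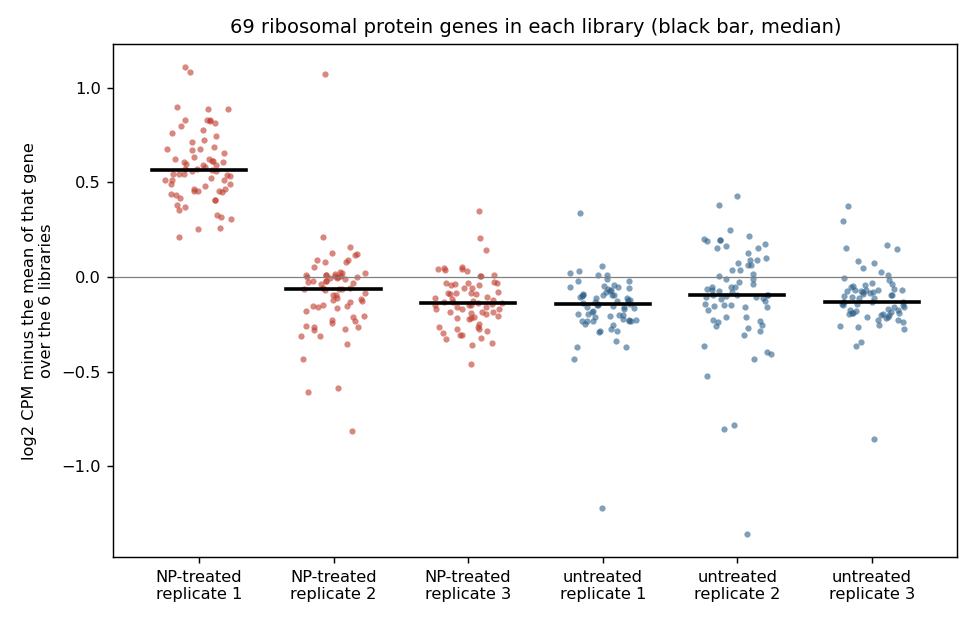
Log2 CPM of each of the 69 genes minus the mean of that gene over the 6 libraries, by library, with the median as a black bar. The median is 0.57 in NP-treated replicate 1 and -0.14 to -0.06 in the other 5 libraries.

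Both subunits showed this pattern. The median of the 42 large-subunit genes on the same centred log2 scale was 0.56 in NP-treated replicate 1, and that of the 27 small-subunit genes was 0.59. The ratio of summed large-subunit to small-subunit counts was 1.79, 1.78 and 1.75 in NP-treated replicates 1, 2 and 3, against 1.86, 1.68 and 1.86 in untreated replicates 1, 2 and 3. The NP-treated ratios lay inside the untreated range.

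Other short transcripts were also high in NP-treated replicate 1. The tested genes outside the family with a mean count of at least 100 were grouped by the length that count and FPKM imply. On the centred log2 CPM scale the median of the 148 such genes under 500 bases was 0.52 in NP-treated replicate 1, and that of the 646 genes from 500 to under 1000 bases was 0.49. It was 0.22 from 1000 to under 2000 bases, 0.02 from 2000 to under 4000 bases, and -0.21 from 4000 bases. Ribosomal protein genes gave 0.68 under 500 bases (n = 13), 0.54 from 500 to under 1000 bases (n = 41) and 0.57 from 1000 to under 2000 bases (n = 13). Each longer class held a single ribosomal protein gene. From 500 to under 1000 bases, 41 of 41 ribosomal protein genes and 63.6% of the other genes had their highest value in NP-treated replicate 1. The part of transcript length in the high ribosomal protein values of that library was not tested.

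**Figure D3:**
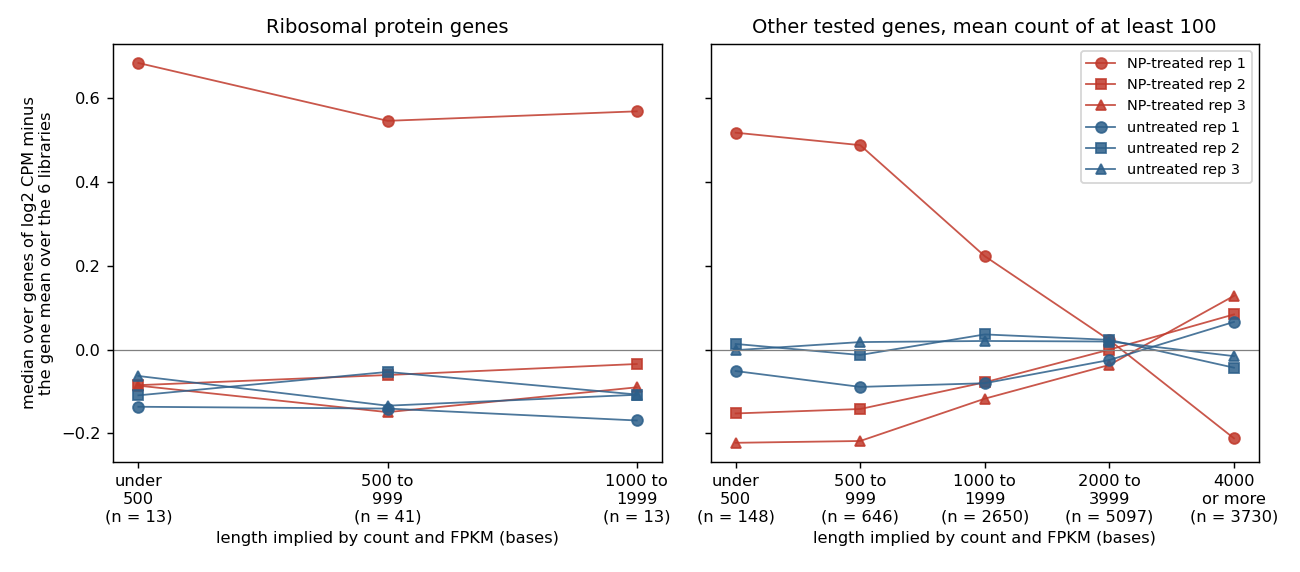
Median over genes of log2 CPM minus the gene's own mean, by library and by implied length, for ribosomal protein genes (left, classes of at least 10 genes) and other tested genes with a mean count of at least 100 (right). NP-treated replicate 1 is at 0.54 for ribosomal protein genes and 0.49 for other genes in the class from 500 to under 1000 bases, and at -0.21 for other genes of 4000 bases or more.

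Markers of the cell types that an aortic wall can hold were read in the same libraries, and none of the markers found in the table was at 0 in all 6. Smooth muscle, the main cell type of the aortic wall, was present, and the 6 smooth muscle genes Acta2, Myh11, Tagln, Cnn1, Lmod1 and Des summed to 2275 to 4561 CPM in NP-treated and 2518 to 2854 CPM in untreated libraries, lowest in NP-treated replicate 1. NP-treated replicate 1 had the lowest sum of the 4 endothelial markers found, 339.7 CPM, in ranges of 339.7 to 1209 CPM in NP-treated and 597 to 763 CPM in untreated libraries. It also had the lowest sum of the 5 fibroblast markers, 9101 CPM, in ranges of 9101 to 19466 CPM in NP-treated and 14098 to 15842 CPM in untreated libraries, and of the 5 adipocyte markers, 204 CPM, in ranges of 204 to 411 CPM in NP-treated and 727 to 1002 CPM in untreated libraries. The adipocyte sums were lower in all NP-treated than in all untreated libraries. NP-treated replicate 1 had the highest sum of the 5 macrophage markers, 4066 CPM, in ranges of 2014 to 4066 CPM in NP-treated and 2569 to 3186 CPM in untreated libraries. Only 2 of these 5 markers were highest in that library. Their median on the centred log2 CPM scale was 0.35 there, below 0.47 in untreated replicate 2. The 5 T cell markers summed to 16.4 to 30.7 CPM in NP-treated and 17.8 to 106 CPM in untreated libraries and the 5 B and plasma cell markers to 17.2 to 113 CPM in NP-treated and 61.5 to 211 CPM in untreated libraries, both highest in untreated replicate 2. The 5 proliferation markers summed to 37.3 to 151 CPM in NP-treated and 37.8 to 136 CPM in untreated libraries, the 4 erythroid markers found to 3371 to 13201 CPM in NP-treated and 3598 to 19556 CPM in untreated libraries and the 5 skeletal muscle markers to 15.3 to 27.1 CPM in NP-treated and 16.7 to 28.7 CPM in untreated libraries. The part of cell makeup in the ribosomal protein values was not tested.

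NP-treated libraries were then compared with untreated libraries by edgeR's quasi-likelihood test with Benjamini-Hochberg adjustment over all 16522 tested genes, to ask which transcripts differ with treatment. Fitted folds were above 1 in 66 of 69 ribosomal protein genes and below 1 in 3, with a median log2 fold change of 0.26 (quartiles 0.16 and 0.36). Over all tested genes 55.6% of folds were above 1, and the median was 0.04. The test called 0 of the 69 genes at an adjusted p of 0.05, where it called 0% of all tested genes, and each of these genes had an adjusted p that rounds to 1.0. At an unadjusted p under 0.05 there was 1 member, Rpl30, where 1.93% of all tested genes passed in either direction and 0.587% with higher values in NP-treated libraries. DESeq2 and limma-voom also called 0 members, against 0.152% and 0% of all genes they tested, each with 2 members at an unadjusted p under 0.05. The 95% interval of the log2 fold change included 0 for 68 of 69 genes, and its median width was 1.25, so that a change of the size of the median fold was not detectable gene by gene with 3 libraries a group.

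The direction rested on NP-treated replicate 1. Without that library 36 of 69 folds were above 1 and the median log2 fold change was 0.01. Without NP-treated replicate 2 or 3 the median was 0.36 and 0.39, and without an untreated library it was 0.25 to 0.28. Among the other tested genes from 500 to under 1000 bases 68.9% of folds were above 1 with a median of 0.13, which was -0.15 without NP-treated replicate 1. The ribosomal protein genes of that length had a median of 0.25, and 0.01 without it.

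**Figure D4:**
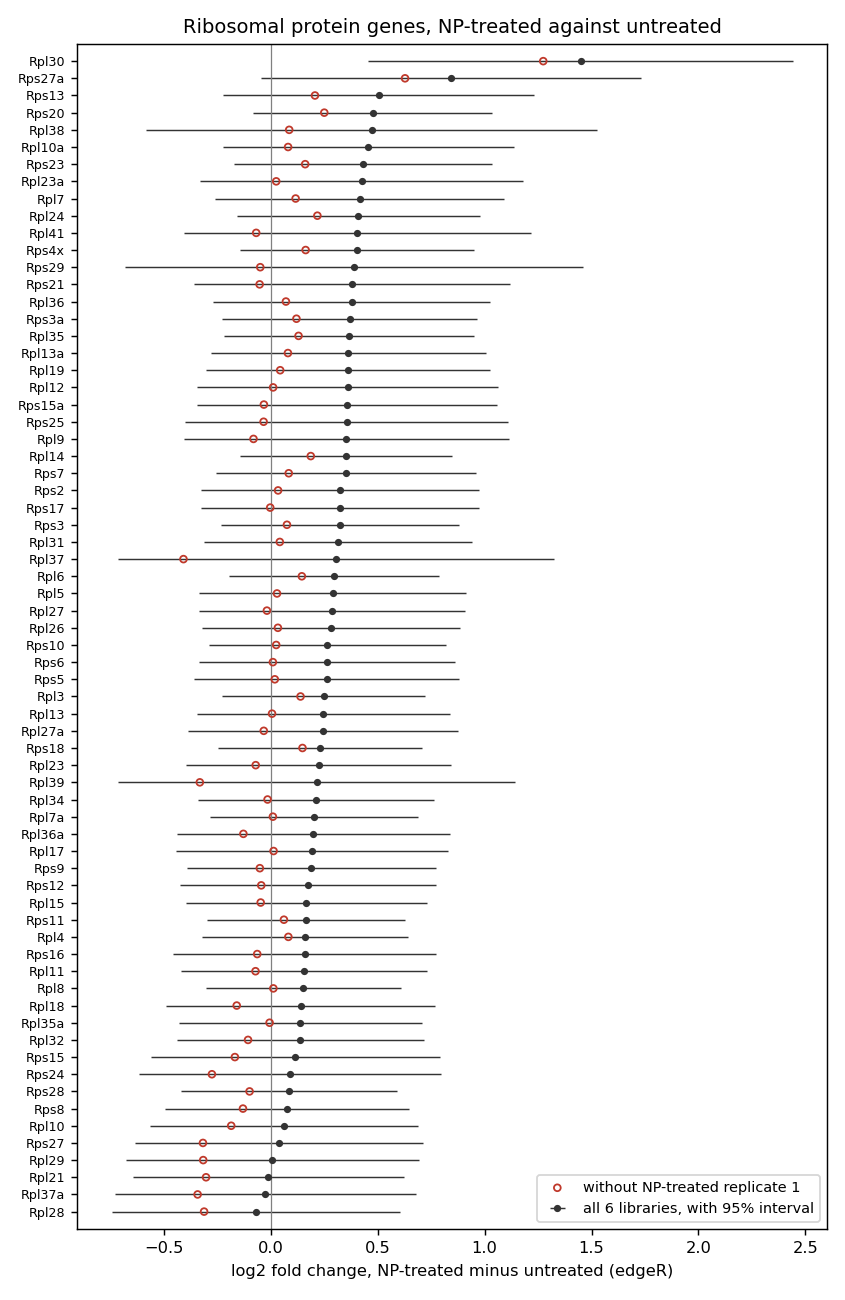
Log2 fold change of 68 of the 69 genes, NP-treated minus untreated, by edgeR with its 95% interval (black) and the value without NP-treated replicate 1 (open red circles). Of the values drawn, 65 lie above 0 with all libraries, and 36 without that library.

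Rpl30, a large-subunit protein that in mammals also binds the selenocysteine insertion element of mRNAs, had the largest fold of the family. It was at 232, 226 and 111 CPM in NP-treated replicates 1, 2 and 3, against 107, 42.0 and 59.5 CPM in untreated replicates 1, 2 and 3. NP-treated replicates 1 and 2 were about equally high, and NP-treated replicate 3 lay just above untreated replicate 1, so the groups stood close to overlap. The means were 189.9 ± 68.4 CPM in NP-treated and 69.5 ± 33.7 CPM in untreated libraries (SD, n = 3 each), with a log2 fold change of 1.45 (SE 0.42) and a 95% interval from 0.46 to 2.44 (edgeR adjusted p of 1.0, DESeq2 adjusted p of 0.277). Without NP-treated replicate 1 the log2 fold change of Rpl30 was 1.27, and over the 6 fits that each lacked a library it ranged from 1.19 to 1.90. Relative to the family median of each library, Rpl30 was highest in NP-treated replicate 2, at 1.13, and lowest in untreated replicate 2, at -1.27. That range of 2.40 on the log2 scale was the widest of the 69 genes, whose median range was 0.39. A row named after a copy, Rpl30l1, chosen after its values were seen, held 13, 3 and 2 counts in NP-treated and 3, 1 and 5 counts in untreated libraries.

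Rps27a, made as a fusion of ubiquitin with a small-subunit protein, came next. It was at 755, 491 and 541 CPM in NP-treated replicates 1, 2 and 3, against 182, 485 and 329 CPM in untreated replicates 1, 2 and 3. The low value of untreated replicate 1 and the high value of NP-treated replicate 1 set the spread, and NP-treated replicate 2 was only slightly above untreated replicate 2. The log2 fold change was 0.84 (SE 0.38), and 0.55 without untreated replicate 1. Rps20, a protein of the head of the small subunit, was at 568, 405 and 358 CPM in NP-treated replicates 1, 2 and 3, against 288, 346 and 324 CPM in untreated replicates 1, 2 and 3, with a log2 fold change of 0.48 (SE 0.24) and 0.25 without NP-treated replicate 1. For both genes every NP-treated library lay above every untreated library, and both had an edgeR adjusted p of 1.0.

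In 9 of 69 genes all NP-treated libraries lay above all untreated libraries, where this held for 2.47% of all tested genes, and in 0 they lay below, against 3.20%. The members are not independent of each other, since they share the offset of each library. These 9 were Rpl30, Rps27a, Rps20, Rpl14, Rpl6, Rps3, Rpl13a, Rpl3 and Rpl4. Rpl3, which lies at the peptidyl transferase centre, was at 819, 698 and 649.5 CPM in NP-treated replicates 1, 2 and 3, against 598, 614 and 614 CPM in untreated replicates 1, 2 and 3. Its NP-treated values were all higher by a small step, with a log2 fold change of 0.25 (SE 0.20). In Rpl13a the gap was narrow, 1068 CPM in NP-treated replicate 3 against 1062 CPM in untreated replicate 3. Rpl14, Rpl6, Rps3 and Rpl4 had log2 fold changes of 0.35, 0.30, 0.32 and 0.16. With NP-treated replicate 1 left out they had 0.19, 0.15, 0.076 and 0.082, and Rpl3 and Rpl13a had 0.14 and 0.08, where Rpl13a had 0.36 with it. These last 6 genes were named for their separate groups after their values were seen.

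The other genes of smallest p-value with a fold above 1 were Rps4x, Rpl24 and Rps23. Rps4x, the X-linked small-subunit gene, averaged 249 ± 64.1 CPM in NP-treated and 188 ± 18.0 CPM in untreated libraries and had a log2 fold change of 0.40 (SE 0.23). Rpl24, a large-subunit protein at the contact between the subunits, averaged 489 ± 102 CPM in NP-treated and 368 ± 63.9 CPM in untreated libraries, with 0.41 (SE 0.24). Rps23 averaged 383 ± 116 CPM in NP-treated and 284 ± 20.7 CPM in untreated libraries, with 0.43 (SE 0.26). The groups overlapped in each of these genes, and their log2 fold changes without NP-treated replicate 1 were 0.16, 0.22 and 0.16.

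Only Rpl28, Rpl37a and Rpl21, all of the large subunit, had a fitted fold below 1. The log2 fold change was -0.07 (SE 0.29) for Rpl28, -0.03 (SE 0.30) for Rpl37a and -0.01 (SE 0.27) for Rpl21. Rpl28, which budding yeast lacks, was at 791, 478 and 559 CPM in NP-treated replicates 1, 2 and 3, against 544, 822 and 554 CPM in untreated replicates 1, 2 and 3. Untreated replicate 2 and NP-treated replicate 1 were high and the other 4 libraries lay close together. Rpl37a, a zinc-binding protein, had the same high libraries, at 589 CPM in NP-treated replicate 1 and 545 CPM in untreated replicate 2, against 329 to 388 CPM elsewhere. The direction of all 3 turned without untreated replicate 2, and also without NP-treated replicate 2. That of Rpl37a and Rpl21 turned without NP-treated replicate 3 as well. Ranges over the fits without single libraries are given with the other settings.

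The genes of widest range over the libraries were, beside Rpl30 and Rps27a, 3 of the 5 lowest. Rpl37 was at 78.2, 24.2 and 29.9 CPM in NP-treated replicates 1, 2 and 3, against 31.4, 34.2 and 41.5 CPM in untreated replicates 1, 2 and 3. Rpl39 was at 38.5, 11.8 and 20.9 CPM in NP-treated replicates 1, 2 and 3, against 20.5, 20.1 and 20.8 CPM in untreated replicates 1, 2 and 3. Rps29 was at 13.9, 4.98 and 8.63 CPM in NP-treated replicates 1, 2 and 3, against 7.01, 4.28 and 9.68 CPM in untreated replicates 1, 2 and 3. All 3 peaked in NP-treated replicate 1, and the groups overlapped. For Rpl37 and Rpl39 the low value was in NP-treated replicate 2. The direction of all 3 reversed without NP-treated replicate 1. Log2 fold changes were then -0.41 for Rpl37, -0.33 for Rpl39 and -0.049 for Rps29, against 0.31, 0.21 and 0.39 with it. With Rpl30 and Rps27a these were the 5 genes whose range relative to the family median was over 1 on the log2 scale.

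**Figure D5:**
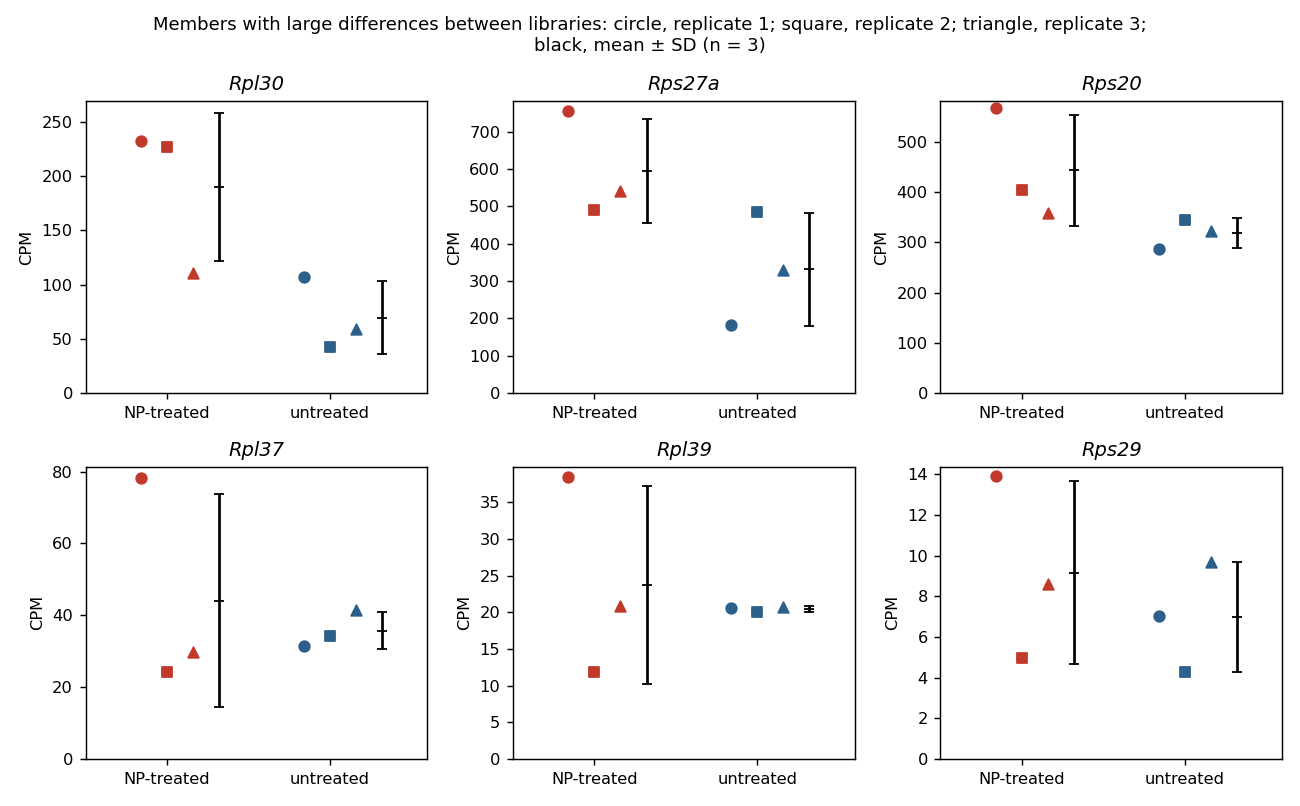
CPM per library of 6 ribosomal protein genes in the NP-treated (red) and untreated (blue) group, with mean ± SD in black (n = 3). In Rpl30, Rps27a and Rps20 every red point lies above every blue point, and in Rpl37, Rpl39 and Rps29 NP-treated replicate 1 (circle) is the highest and the groups overlap.

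After subtraction of the family median of each library, 2 genes, Rpl30 and Rps20, were higher in all NP-treated than in all untreated libraries, and 5, Rpl10, Rpl21, Rpl29, Rpl37a and Rps27, were lower. Under the same subtraction 0.272% of all tested genes were separate on the high side and 9.05% on the low side. Without it these shares were 2.47% and 3.20%. The subtraction centres the members by construction and lowers other genes in NP-treated replicate 1, where the family median was 0.57. These shares are therefore no measure of how many members would separate. The mean of this deviation was 0.10 in NP-treated and -0.10 in untreated libraries for Rps20. For Rpl29 it was -0.15 in NP-treated and 0.14 in untreated libraries. Apart from Rpl30, Rps20 and Rpl21 with Rpl37a, these genes were named after their values were seen.

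Of 6 related genes of the same ribosome, 5 had a fold above 1, 1 had a fold below 1 and 0 passed the threshold by edgeR (0 at an unadjusted p under 0.05). Without NP-treated replicate 1, 2 of 6 folds were above 1, and the median log2 fold change was -0.054, against 0.18 with it. Rpsa, of the small subunit and also known as the laminin receptor, was at 2489, 1581 and 1872 CPM in NP-treated replicates 1, 2 and 3, against 1605, 1634 and 1684 CPM in untreated replicates 1, 2 and 3. It was highest in NP-treated replicate 1. The stalk proteins differed among themselves. Rplp0, the base of the stalk, was at 0.06 (SE 0.23) on the log2 fold scale, and Rplp1 at 0.22 (SE 0.31), while Rplp2, which pairs with Rplp1 on the stalk, was at 128, 17.6 and 82.9 CPM in NP-treated replicates 1, 2 and 3, against 89.5, 143 and 91.1 CPM in untreated replicates 1, 2 and 3. Its value in NP-treated replicate 2 lay far below the others, and its log2 fold change was -0.50 (SE 0.62). Fau, a ubiquitin-like protein fused to a small-subunit protein, was at 19.7, 48.8 and 48.9 CPM in NP-treated replicates 1, 2 and 3, against 15.0, 31.1 and 23.5 CPM in untreated replicates 1, 2 and 3, with a log2 fold change of 0.75 (SE 0.41). NP-treated replicate 1 was the second lowest library for Fau, unlike for the family, and the groups overlapped. Rack1, a scaffold on the small subunit, had 0.14 (SE 0.26). The fit that lacked NP-treated replicate 1 gave log2 fold changes of 0.065 for Rpsa, -0.028 for Rplp0, -0.16 for Rplp1, -1.11 for Rplp2, 1.07 for Fau and -0.079 for Rack1.

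Several ribosomal proteins have paralogs, some of which take their place in certain tissues, and 8 of 9 listed paralogs were found in the table. Of the 7 tested, 6 had a fold above 1 and 1 below 1, and 0 passed the threshold (1 at an unadjusted p under 0.05, Rpl3l, where 1.34% of all tested genes passed with lower values in NP-treated libraries). Rpl3l, the paralog of Rpl3 in heart and skeletal muscle, held 0, 6 and 8 counts in NP-treated replicates 1, 2 and 3, against 28, 22 and 20 counts in untreated replicates 1, 2 and 3. It was low in every library, and its log2 fold change was -2.25 (SE 0.96) with an edgeR adjusted p of 1.0. All NP-treated libraries lay below all untreated libraries, which held for 3.20% of all tested genes. The skeletal muscle markers were low as well, at 15.3 to 28.7 CPM in sum, and overlapped between the groups. The part of muscle content in the Rpl3l values was not tested. Rpl10l, a testis paralog of Rpl10, held 45, 29 and 42 counts in NP-treated and 28, 22 and 9 counts in untreated libraries, with 1.01 (SE 0.58). Reads of Rpl10 could reach Rpl10l, since the coding sequences are close. Per length, Rps27l averaged 42.2 FPKM in NP-treated and 38.5 FPKM in untreated libraries, far below Rps27 at 1154 FPKM in NP-treated and 1163 FPKM in untreated libraries. Likewise Rpl36al averaged 77.6 FPKM in NP-treated and 67.6 FPKM in untreated libraries, below Rpl36a at 294 FPKM in NP-treated and 265 FPKM in untreated libraries. Rpl22l1, Rps4y2, Rpl7l1, Rpl36al and Rps27l had log2 fold changes of 0.33, 0.41, 0.14, 0.26 and 0.20. With NP-treated replicate 1 left out these were -0.16, 0.065, 0.14, -0.042 and -0.34, with -1.69 for Rpl3l and 0.87 for Rpl10l. Then 3 of 7 paralogs had a fold above 1, with a median log2 fold change of -0.042, against 0.26 with that library. Rpl39l, at 2, 0 and 7 counts in NP-treated and 0, 0 and 0 counts in untreated libraries, was not tested.

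Some rows of the table carry the name of a copy of a member, and the following were chosen after their values were seen. Rpl35al1, named after Rpl35a, was at 69.6, 5.23 and 3.73 CPM in NP-treated replicates 1, 2 and 3, against 5.80, 5.26 and 6.68 CPM in untreated replicates 1, 2 and 3. NP-treated replicate 1 was over 10 times any other library, while Rpl35a itself was at 97.5, 77.3 and 73.0 CPM in the NP-treated libraries and 98.0, 58.6 and 68.6 CPM in the untreated libraries. Rps18l1 was at 74.9, 28.5 and 64.1 CPM in the NP-treated libraries and 54.5, 19.6 and 57.7 CPM in the untreated libraries, low in replicate 2 of both groups. A row that RefSeq lists as a pseudogene of Rpl17, RGD1359290, was at 134, 97.3 and 13.0 CPM in NP-treated replicates 1, 2 and 3, against 84.5, 168 and 18.8 CPM in untreated replicates 1, 2 and 3. Both replicates numbered 3 were low there, and Rpl17 itself was at 801, 543 and 624 CPM in the NP-treated libraries and 467, 515 and 742 CPM in the untreated libraries, highest after NP-treated replicate 1 in untreated replicate 3. Summed over both rows, the values were 936, 639.9 and 637 CPM in the NP-treated libraries and 551, 683 and 761 CPM in the untreated libraries. Whether reads moved between these rows and the members was not tested.

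Genes that act around the ribosome were read in the same fit, and 0 of any list below passed an adjusted p of 0.05 by edgeR, with 0 at an unadjusted p under 0.05. Of 16 elongation factors and other TOP mRNAs, 16 had a fold above 1, with a median log2 fold change of 0.20, and of 0.15 without NP-treated replicate 1, where 12 had a fold above 1. Eef1a1, the factor that delivers aminoacyl-tRNA, was at 3564, 4740.4 and 4842 CPM in NP-treated replicates 1, 2 and 3, against 3713, 3182 and 3036 CPM in untreated replicates 1, 2 and 3. There NP-treated replicates 2 and 3 were the high libraries, and NP-treated replicate 1 lay below untreated replicate 1. Eef1b2, which recharges that factor with GTP, was at 244, 151 and 151 CPM in the NP-treated libraries and 143, 133 and 150.4 CPM in the untreated libraries, highest in NP-treated replicate 1, with 0.36 (SE 0.24), and 0.081 without that library. Of 22 initiation factors 18 had a fold above 1 (median log2 fold change 0.14, and -0.014 without NP-treated replicate 1, where 11 had a fold above 1), among them Eif5 at 0.28 (SE 0.18) and Eif2s3 at 0.24 (SE 0.17). Eif2b5, a subunit of the exchange factor of eIF2, had -0.20 (SE 0.20), and Eif6, which keeps the subunits apart, -0.16 (SE 0.23).

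The makers of ribosomes gave medians near those of all tested genes. Of 40 assembly and rRNA processing genes, 20 had a fold above 1 and 20 below 1, with a median log2 fold change of 0.0078, and -0.018 without NP-treated replicate 1. The assembly factors Rrs1 and Ebna1bp2 had 0.34 (SE 0.20) and 0.41 (SE 0.25), while Noc4l and Pes1, assembly factors as well, stood at -0.29 (SE 0.27) and -0.15 (SE 0.17). Of 14 genes of RNA polymerase I and its factors, 9 had a fold above 1 (median 0.063), with the subunits Polr1a at 0.43 (SE 0.41) and Twistnb at 0.32 (SE 0.24) above 0, and the subunit Polr1e at -0.45 (SE 0.25) and the factor Taf1c at -0.23 (SE 0.18) below 0. Without NP-treated replicate 1, 4 of these 14 had a fold above 1 and the median was -0.077, with Polr1a at 0.18 and Twistnb at 0.13. Of 14 genes of mTORC1 and its control of ribosomal protein mRNAs, 9 had a fold above 1 (median 0.028, and 0.077 without NP-treated replicate 1). Larp1, which binds TOP mRNAs, had 0.25 (SE 0.17), Mlst8, an mTOR complex subunit, -0.28 (SE 0.22), and Rps6kb2, a kinase of Rps6, -0.23 (SE 0.23). Of 8 genes of the p53 response, which unassembled ribosomal proteins can trigger, 3 had a fold above 1 (median -0.10, and -0.14 without that library), with Ccng1 at 0.30 (SE 0.24) and Zmat3 at 0.11 (SE 0.47) above 0 (0.08 and 0.40 without it), and Sesn2 at -0.49 (SE 0.24) and Cdkn1a at -0.50 (SE 0.25) below 0.

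Mitochondrial ribosomal proteins, which build the separate ribosome of mitochondria, were high in the same library. Of 74 tested, 62 had their highest value in NP-treated replicate 1, 50 had a fold above 1, and the median log2 fold change was 0.08, and -0.20 without that library, where 11 had a fold above 1. Mrps31 had 0.30 (SE 0.20) and Mrpl39 0.62 (SE 0.42), against -0.27 (SE 0.20) for Mrps27 and -0.25 (SE 0.20) for Mrpl4, and without NP-treated replicate 1 Mrpl39 had 0.00058. On the centred log2 CPM scale their median was 0.51 in NP-treated replicate 1, beside 0.57 for the cytosolic genes and 0.17 for the assembly genes. It was -0.19 and -0.25 in NP-treated replicates 2 and 3, against -0.14, 0.13 and -0.01 in untreated replicates 1, 2 and 3. The difference between these lists was not tested.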

How the data were processed

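RNA of rat aortas with aneurysm was sequenced in 6 libraries, 3 from NP-treated and 3 from untreated aneurysms, and a table of 24988 genes was deposited. Per gene and library, the deposited counts are whole numbers without normalization. The FPKM values deposited by the authors stand beside them and allow for gene length and depth. HISAT2 2.0.4, an aligner, is named in the submitters' processing notes, and SOAPnuke, a read filter, in the series design text. No source used here names the counting tool, build, annotation or strand setting, so sense and antisense reads, and reads of pseudogenes, may not have been told apart.

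Genes were filtered with filterByExpr at a minimum count of 10, leaving 16522, and tested in edgeR 4.0.16 (R 4.3.3) by glmQLFit and glmQLFTest with TMM factors and group as the only term, Benjamini-Hochberg adjustment over all genes and a threshold of 0.05. Each standard error is the size of the log2 fold change over the square root of F. The test was tried first on simulated counts, with the same dispersion of 0.16 for every gene and no offset shared between genes. With 50 changed genes at each fold, it recovered 3 at a fold of 2, 20 at 4, 48 at 8 and 48 at 16. It made 3 false calls in all. The changed genes were drawn from all tested genes, so these rates do not give the power for the ribosomal protein genes. Alternatives were DESeq2 1.42.0, limma 3.58.1 on voom values and on log2(FPKM + 1) and log2(FPKM + 0.1), other scalings, no filter, a replicate block, and each library left out.

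The members and gene lists were chosen with earlier results of these data known. Named genes are Rpl30, the 6 members of smallest p-value with a fold above 1 and up to 6 with a fold below 1, the 5 highest and 5 lowest in FPKM, the 5 of widest range, the related genes, and up to 2 of smallest p-value in each direction of the other lists. Some genes of this rule are not reported here. Others were named after their values were seen, as the text says.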

Additional observations from a re-analysis of the deposited data

How the results depend on the processing

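The test called 0 genes by edgeR in all settings, 29 by DESeq2, 1 by limma on log2(FPKM + 1) and 3 on log2(FPKM + 0.1), and 0 ribosomal protein genes in any of these. At an unadjusted p under 0.05 edgeR gave 319 genes of all. The median log2 fold change of the family was 0.26, and 0.22 to 0.27 under the other scalings, tools and filters. With each library left out in turn, it ran from 0.01 to 0.39, the number of folds above 1 from 36 to 69, and the difference in summed share of counts from 0.150 to 0.816 percentage points, in each case lowest without NP-treated replicate 1. With mitochondrially encoded genes left out of the total, that difference was 0.578 percentage points. With the replicate block the median was 0.24 and 0 members were called. The labels do not say whether same-numbered libraries are paired. Such libraries correlated at -0.23, 0.04 and -0.28 in their deviations from the group means over 16522 genes, and libraries of unlike number at -0.17 to 0.40. With group means over 3 libraries, these values cannot show whether the samples were paired. Without NP-treated replicate 1, 30 of the 69 log2 fold changes turned direction. Among the 18 members named here by the rule, those that turned in a leave-one-out fit ranged over -0.17 to 0.26 for Rps15, -0.068 to 0.62 for Rpl41, -0.049 to 0.70 for Rps29, -0.081 to 0.55 for Rpl9, -0.33 to 0.54 for Rpl39 and -0.41 to 0.60 for Rpl37, in each of which the lowest value was the one without NP-treated replicate 1. For the 3 genes with a fold below 1 the ranges were -0.31 to 0.15 for Rpl28, -0.34 to 0.17 for Rpl37a and -0.30 to 0.13 for Rpl21, with the highest value without untreated replicate 2 or NP-treated replicate 2. Over these named members, 14 of 252 alternative values turned direction and 238 kept direction and side of the threshold. Of 65 alternative values of the counts, the median and the share, 4 were labelled as moved. These were the numbers of genes called by DESeq2 and by limma on both FPKM scales, and the 36 folds above 1 without NP-treated replicate 1. The 61 others include the median of 0.01 and the share difference of 0.150 percentage points without that library, which kept their sign but not their size. The cause of these changes was not tested. With 3 libraries a group, a fold of the size of the family median was below what the test can show for a single gene, and relative counting error was largest for Rpl38 and Rps29.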
